A study of Homo sapiens with 12 samples.

Results

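The subject is a named set of 10 genes for plasma membrane amino acid carriers of the SLC1, SLC7 and SLC38 families, which leaves out the cystine/glutamate antiporter known as system xc. The set was drawn up with earlier results of these data known and does not hold every gene of these families, of which others are counted in a separate list at the end. All 10 were measured, by 25 of the 22277 probe sets on the array, among 11963 genes with at least 1 probe set of their own. The cells were RCC4, a human line established from clear cell renal carcinoma. The 4 groups, of 3 arrays each, were WWTR1-silenced cells with erastin (siTAZ erastin), WWTR1-silenced cells with vehicle (siTAZ DMSO), control siRNA cells with erastin (siNT erastin) and control siRNA cells with vehicle (siNT DMSO). Cells had siRNA for 2 days and then 1 µM erastin or DMSO for 7 hours, in medium with serum. TAZ here is the transcriptional coactivator encoded by WWTR1. The control siRNA was non-targeting, and no group was left untransfected. The series text calls the replicates biological triplicates of 1 cell line.

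Amino acids enter cells through families of carriers with overlapping substrates. SLC1 proteins move acidic or small neutral amino acids with sodium. Several SLC7 proteins are exchangers that reach the cell surface only as a pair with a heavy chain such as SLC3A2, while others carry cationic amino acids alone. SLC38 proteins take up small neutral amino acids, glutamine among them, with sodium. In many cell types, the transcription of some of these genes is raised when amino acids are short, through the kinase GCN2 and the transcription factor ATF4, which binds C/EBP-ATF response elements. Erastin blocks system xc and so limits the supply of cystine. In kidney, such carriers recover filtered amino acids along the tubule.

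The core of the C/EBP-ATF response element, TGATGNAA, was looked up on both strands of the RefSeq windows that run from 250 bases before to 50 bases after each annotated start (GRCh38.p14). The 10 genes had 19 such windows. Of these, 5 windows held a match, 1 each in SLC1A3, SLC1A4, SLC1A5, SLC7A1 and SLC38A1, against 3.62% of all 35116 windows of that length and 4.46% of 27305 genes with at least 1 matching window. The windows below belong to the 4 of these genes whose signals were above the dim range and passed a test in at least 1 comparison. SLC1A4, SLC1A5 and SLC38A1 have other windows without a match. Capitals mark the match, and sequences run 5′ to 3′ on the strand of the gene.
SLC1A4, chr2:64989149-64989448, plus strand: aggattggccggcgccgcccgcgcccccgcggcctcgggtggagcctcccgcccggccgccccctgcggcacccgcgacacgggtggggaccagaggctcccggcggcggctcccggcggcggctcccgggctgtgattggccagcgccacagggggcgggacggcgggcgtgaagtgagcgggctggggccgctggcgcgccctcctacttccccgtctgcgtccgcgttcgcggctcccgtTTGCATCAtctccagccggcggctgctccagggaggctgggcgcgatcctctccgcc
SLC1A5, chr19:46784765-46785064, minus strand: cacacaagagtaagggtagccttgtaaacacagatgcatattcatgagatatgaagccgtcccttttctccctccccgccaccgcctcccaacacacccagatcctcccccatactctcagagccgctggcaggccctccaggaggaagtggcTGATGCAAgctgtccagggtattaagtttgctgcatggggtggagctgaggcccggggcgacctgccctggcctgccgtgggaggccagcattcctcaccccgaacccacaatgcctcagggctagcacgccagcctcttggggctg
SLC7A1, chr13:29595639-29595938, minus strand: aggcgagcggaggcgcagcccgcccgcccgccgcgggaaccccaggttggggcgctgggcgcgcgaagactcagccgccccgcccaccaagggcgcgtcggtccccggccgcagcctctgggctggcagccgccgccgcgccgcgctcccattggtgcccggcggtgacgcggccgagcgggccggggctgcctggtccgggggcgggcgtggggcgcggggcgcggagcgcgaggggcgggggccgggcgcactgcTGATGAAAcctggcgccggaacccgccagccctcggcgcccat
SLC38A1, chr12:46266467-46266766, minus strand: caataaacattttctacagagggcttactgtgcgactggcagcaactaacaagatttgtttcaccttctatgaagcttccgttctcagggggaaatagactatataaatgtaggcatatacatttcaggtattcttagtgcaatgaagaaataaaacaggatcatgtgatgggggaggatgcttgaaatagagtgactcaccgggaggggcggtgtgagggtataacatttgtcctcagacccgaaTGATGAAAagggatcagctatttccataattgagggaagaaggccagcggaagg
In SLC1A4 the match lies on the opposite strand at bases 244 to 251 of the window. In SLC7A1 it lies at bases 258 to 265, in SLC38A1 at bases 247 to 254 and in SLC1A5 at bases 154 to 161, all on the strand of the gene. The windows of SLC1A1, SLC7A5, SLC7A6, SLC7A8 and SLC38A2 did not hold these letters. GGAATG, the core that TEAD factors bind as partners of TAZ, was in 2 of the 19 windows, 1 each of SLC1A3 and SLC1A5, against 14% of all windows. These matches are descriptions of letters and were not tested as binding sites.

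Values are the deposited log2 probe set signals. Where a gene had several probe sets, the one with the highest mean over the 12 arrays stands for it unless another is named. Differences are log2 fold changes ± standard error from 1 limma fit over all 12 arrays, with "rose" and "fell" kept for an adjusted p (Benjamini-Hochberg, over all 11963 genes) under 0.05. Array medians lay between 6.48 and 6.54, and arrays of a group correlated at 0.9955 to 0.9985. WWTR1 had signals of 9.09 to 9.46 on the 6 siTAZ arrays, against 12.19 to 12.35 on the 6 siNT arrays. All 9 measured renal carcinoma and tubule markers were bright (mean signals of 8.20 to 13.5), while the median levels of the leukocyte, endothelial and erythroid marker lists lay between 4.18 and 5.04 in every group. The highest gene means of these lists were 5.52, 5.94 and 6.43. Probe sets with a mean at or under 4.96, the 75th percentile of those 18 markers, are called dim. A fibroblast list, not used for this limit, had group medians of 4.83 to 4.91 and a highest gene mean of 7.43. The actin 3′ minus 5′ control signal, 1 of 2 such measures of RNA quality, was 3.25 ± 0.33 on siTAZ erastin, 2.65 ± 0.04 on siTAZ DMSO, 2.26 ± 0.69 on siNT erastin and 2.68 ± 0.28 on siNT DMSO arrays (SD, n = 3). In the same order, the GAPDH 3′ minus 5′ signal was 0.20 ± 0.06, 0.20 ± 0.07, 0.15 ± 0.08 and 0.18 ± 0.07. The arrays measure RNA of whole cultures, so a different share of cells and a different RNA level per cell cannot be told apart.

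Silencing of WWTR1 in vehicle lowered SLC7A5, SLC1A5, SLC7A1, SLC1A4 and SLC38A1 and raised SLC1A1, while the probe sets of SLC7A6 disagreed. On the brightest probe sets 7 of the 10 genes were called, against 28.6% of all genes: 6 fell, against 13.9%, and 1 rose, against 14.7%. The falls were those of SLC7A5, SLC1A5, SLC7A1, SLC1A4, SLC7A6 and SLC38A1, by 0.19 to 0.47 in size, and the rise was that of SLC1A1. Under erastin 5 of the 10 were called on the brightest probe sets (28.2% of all genes), of which 4 fell (12.6%), namely SLC7A5, SLC1A5, SLC7A6 and SLC7A1, and SLC1A1 rose (15.6%). The less bright SLC7A6 probe sets were called in the other direction there, and SLC7A1 was called in 10 of 18 alternatives. These 18 leave out fits of single less bright probe sets, and none of those of SLC7A1 was called under erastin. In siTAZ DMSO against siNT DMSO the arrays of the groups did not overlap for 8 of the 10 (43.8% of all genes), with siTAZ above for 1 (21.4%) and below for 7 (22.4%). These 7 include the dim SLC1A3, which did not pass the test, and SLC7A6 on its brightest probe set alone. In siTAZ erastin against siNT erastin the arrays did not overlap for 7 of the 10 (38.8%), with siTAZ above for 1 (21.1%) and below for 6 (17.7%), SLC7A6 on its brightest probe set among them. The median log2 fold change of the 10 genes was −0.23 in vehicle and −0.15 under erastin, beside −0.01 and 0.01 over all genes.

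**Figure D1:**
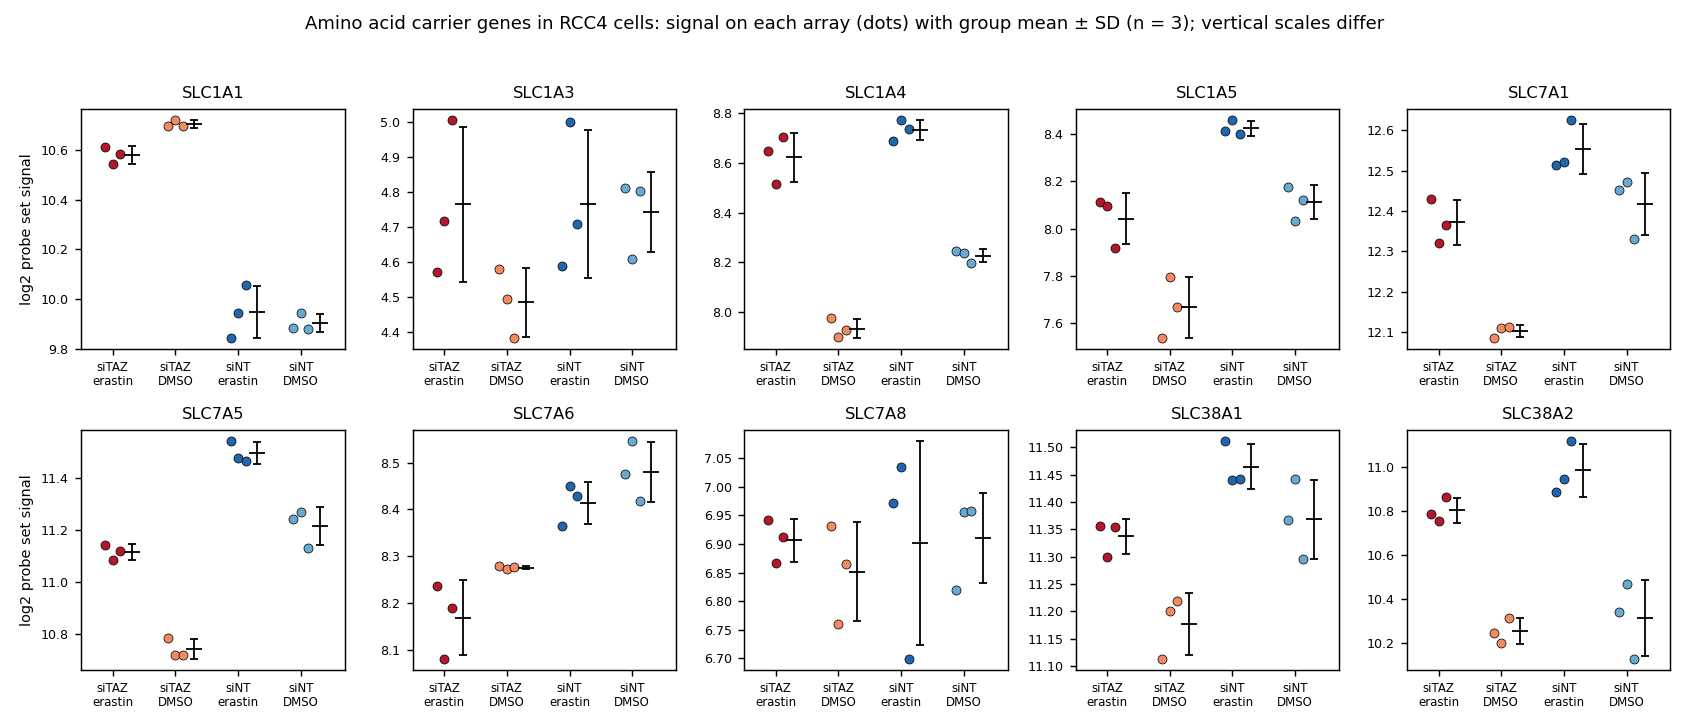
Log2 probe set signal (vertical axes, each on its own scale) of the 10 carrier genes on every array, by group; dots are arrays and bars the mean ± SD (n = 3). SLC1A1 is higher on all 6 siTAZ arrays (10.54 to 10.72) than on the 6 siNT arrays (9.84 to 10.05), while SLC1A4 and SLC38A2 are higher on all 6 erastin arrays than on the 6 DMSO arrays.

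The carriers of acidic amino acids are given first. SLC1A1 encodes EAAT3, a high-affinity glutamate and aspartate carrier that also takes up cysteine. Its signals were 10.70, 10.72 and 10.70 on siTAZ DMSO arrays, against 9.88, 9.94 and 9.88 on siNT DMSO arrays. They were 10.61, 10.54 and 10.58 on siTAZ erastin arrays, against 9.84, 9.94 and 10.05 on siNT erastin arrays. All siTAZ arrays thus lay above all siNT arrays. The gene rose by 0.80 ± 0.06 or 1.74-fold in vehicle (adjusted p = 8.52e-07 in limma) and by 0.63 ± 0.06 or 1.55-fold under erastin (adjusted p = 6.15e-06 in limma). Its difference between erastin and DMSO was −0.13 ± 0.06 in siTAZ cells and 0.05 ± 0.06 in siNT cells, neither past the test, although the siTAZ erastin arrays all lay below the siTAZ DMSO arrays. The other, less bright SLC1A1 probe set differed by 0.31 ± 0.12 in vehicle and 0.15 ± 0.12 under erastin for siTAZ against siNT, the same direction, without passing the test (adjusted p = 0.0723 and 0.426 over all probe sets in limma).

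SLC1A3 encodes EAAT1, the glutamate carrier best known from astrocytes. Its single probe set was dim in each of the 4 groups, with means of 4.76 in siTAZ erastin, 4.48 in siTAZ DMSO, 4.77 in siNT erastin and 4.74 in siNT DMSO. It passed the test in no comparison, and no fold is given. With array weights, or with only the compared groups in the fit, it was called lower in siTAZ DMSO than in siNT DMSO (adjusted p = 0.0494 and 0.038 in limma).

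SLC1A4 and SLC1A5 carry small neutral amino acids. SLC1A4 encodes ASCT1, an exchanger of alanine, serine and cysteine. Its signals were 7.97, 7.90 and 7.93 on siTAZ DMSO arrays, against 8.24, 8.24 and 8.20 on siNT DMSO arrays. With erastin they were 8.65, 8.52 and 8.71 on siTAZ arrays, against 8.69, 8.77 and 8.74 on siNT arrays. The siTAZ and siNT arrays were thus apart in vehicle and overlapped under erastin. SLC1A4 fell by 0.29 ± 0.06 or 1.23-fold on silencing in vehicle (adjusted p = 0.00187 in limma). Under erastin its difference was −0.11 ± 0.06, which did not pass the test (adjusted p = 0.189 in limma). Erastin raised it by 0.69 ± 0.06 or 1.61-fold in siTAZ cells (adjusted p = 4.82e-05 in limma) and by 0.51 ± 0.06 or 1.42-fold in siNT cells (adjusted p = 0.00118 in limma).

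In vehicle and for the erastin responses, the 4 probe sets of SLC1A4 gave the same direction with different sizes. In siTAZ DMSO against siNT DMSO all 4 were called, against 24.3% of all 19064 probe sets, with log2 fold changes of −0.29, −0.41, −0.59 and −0.30 from the brightest to the least bright. The erastin response in siTAZ cells (0.294% of probe sets called) was 0.69, 0.88, 1.01 and 0.35 in the same order, and the last of these was not called (adjusted p = 0.0844 over all probe sets in limma). In siNT cells (0.372% called) it was 0.51, 0.54, 0.41 and 0.04, the last again not called (adjusted p = 0.946 in limma). Under erastin the siTAZ and siNT arrays overlapped on all 4. The difference between the erastin responses was largest on the third brightest, at 0.60 ± 0.10, with an adjusted p of 0.234 over all probe sets in limma.

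SLC1A5 encodes ASCT2, a glutamine carrier that is high in many tumours. Its signals were 7.54, 7.80 and 7.67 on siTAZ DMSO arrays, against 8.18, 8.03 and 8.12 on siNT DMSO arrays. Under erastin they were 8.11, 8.10 and 7.92 on siTAZ arrays, against 8.41, 8.46 and 8.40 on siNT arrays. In each medium the highest siTAZ array lay below the lowest siNT array. SLC1A5 fell by 0.45 ± 0.08 or 1.36-fold in vehicle (adjusted p = 0.000736 in limma) and by 0.38 ± 0.08 or 1.30-fold under erastin (adjusted p = 0.00216 in limma). Erastin arrays were above DMSO arrays without overlap in siTAZ and in siNT cells. The differences of 0.38 ± 0.08 in siTAZ and 0.31 ± 0.08 in siNT cells had adjusted p of 0.0543 and 0.102 in limma. The first of these passed the test without siTAZ DMSO replicate 2 (0.44, adjusted p = 0.0434 in limma). Both passed it with a trend in the variances (adjusted p = 0.0101 and 0.0346 in limma).

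Among the SLC7 genes, SLC7A5 had the largest fall on silencing. It encodes LAT1, which exchanges leucine and other large neutral amino acids and pairs with SLC3A2. Its signals were 10.79, 10.72 and 10.72 on siTAZ DMSO arrays, against 11.24, 11.27 and 11.13 on siNT DMSO arrays. With erastin they were 11.14, 11.08 and 11.12 on siTAZ arrays, against 11.55, 11.48 and 11.47 on siNT arrays. The groups did not overlap in any of the 4 comparisons. SLC7A5 fell by 0.47 ± 0.05 or 1.39-fold in vehicle (adjusted p = 3.06e-05 in limma) and by 0.38 ± 0.05 or 1.30-fold under erastin (adjusted p = 0.000178 in limma). Erastin raised it by 0.37 ± 0.05 or 1.30-fold in siTAZ cells (adjusted p = 0.00593 in limma) and by 0.28 ± 0.05 or 1.22-fold in siNT cells (adjusted p = 0.0334 in limma). The call in siNT cells was lost without any 1 of the 6 arrays, that is siNT erastin replicate 1, 2 or 3 (0.26, 0.29 and 0.30, adjusted p = 0.12, 0.0776 and 0.061) or siNT DMSO replicate 1, 2 or 3 (0.30, 0.31 and 0.24, adjusted p = 0.108, 0.0716 and 0.102). It was also lost with the actin 3′ minus 5′ signal as a covariate (0.28, adjusted p = 0.0569 in limma).

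SLC3A2, the heavy chain that SLC7A5, SLC7A6 and SLC7A8 pair with, did not pass the test on silencing, with −0.05 ± 0.07 in vehicle and −0.13 ± 0.07 under erastin. Its signals were 9.65, 9.56 and 9.69 on siNT erastin arrays, against 9.29, 9.28 and 9.15 on siNT DMSO arrays, and it rose by 0.40 ± 0.07 (adjusted p = 0.0262 in limma). In siTAZ cells its erastin difference was 0.32 ± 0.07, with an adjusted p of 0.0944 in limma. The arrays did not overlap in either of these comparisons.

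SLC7A1 encodes CAT-1, a uniporter for arginine, lysine and ornithine that needs no heavy chain. Its signals were 12.08, 12.11 and 12.11 on siTAZ DMSO arrays, against 12.45, 12.47 and 12.33 on siNT DMSO arrays. SLC7A1 fell by 0.32 ± 0.06 or 1.24-fold in vehicle (adjusted p = 0.00111 in limma). Under erastin its signals were 12.43, 12.32 and 12.37 on siTAZ arrays, against 12.52, 12.52 and 12.63 on siNT arrays, and the gene fell by 0.18 ± 0.06 (adjusted p = 0.0306 in limma). The arrays were apart in both media. The call under erastin was lost without siTAZ erastin replicate 2 or 3 (−0.16 and −0.18, adjusted p = 0.11 and 0.0754 in limma) or siNT erastin replicate 3 (−0.15, adjusted p = 0.092 in limma). With the actin 3′ minus 5′ signal as a covariate the difference was −0.07 (adjusted p = 0.488 in limma). Its erastin responses of 0.27 ± 0.06 in siTAZ and 0.14 ± 0.06 in siNT cells did not pass the test (adjusted p = 0.0719 and 0.418 in limma), although the arrays did not overlap. With the same covariate the response in siTAZ cells was 0.34 and passed it (adjusted p = 0.0235 in limma), as it did with a trend in the variances (adjusted p = 0.00205 in limma). The other 4 SLC7A1 probe sets, 1 of them dim, were lower in siTAZ than in siNT cells in both media by 0.05 to 0.35, and only the third brightest in vehicle was called (−0.35 ± 0.11, adjusted p = 0.0396 over all probe sets in limma).

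SLC7A6 encodes y+LAT2, which pairs with SLC3A2 and exports arginine in exchange for neutral amino acids and sodium. Its probe sets went opposite ways. On the brightest, signals were 8.28, 8.27 and 8.28 on siTAZ DMSO arrays, against 8.48, 8.55 and 8.42 on siNT DMSO arrays. Under erastin they were 8.24, 8.08 and 8.19 on siTAZ arrays, against 8.36, 8.45 and 8.43 on siNT arrays. On this probe set the gene fell by 0.21 ± 0.06 in vehicle (adjusted p = 0.0159 in limma) and by 0.25 ± 0.06 under erastin (adjusted p = 0.00576 in limma). The second and the third brightest were higher in siTAZ than in siNT cells under erastin, without overlap of the arrays, by 0.34 ± 0.07 and 0.28 ± 0.07 (adjusted p = 0.00523 and 0.0165 over all probe sets in limma, where 24.6% were called). In vehicle they differed by 0.16 ± 0.07 and 0.11 ± 0.07, which did not pass the test. No direction for the SLC7A6 transcript as a whole is given, and its place among the falls rests on the brightest. The call on that probe set in vehicle was lost without siNT DMSO replicate 2 (−0.17, adjusted p = 0.0706 in limma), and the call under erastin with the actin covariate (−0.17, adjusted p = 0.133 in limma). Erastin moved SLC7A6 past the test in neither siTAZ nor siNT cells on any of its probe sets.

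**Figure D2:**
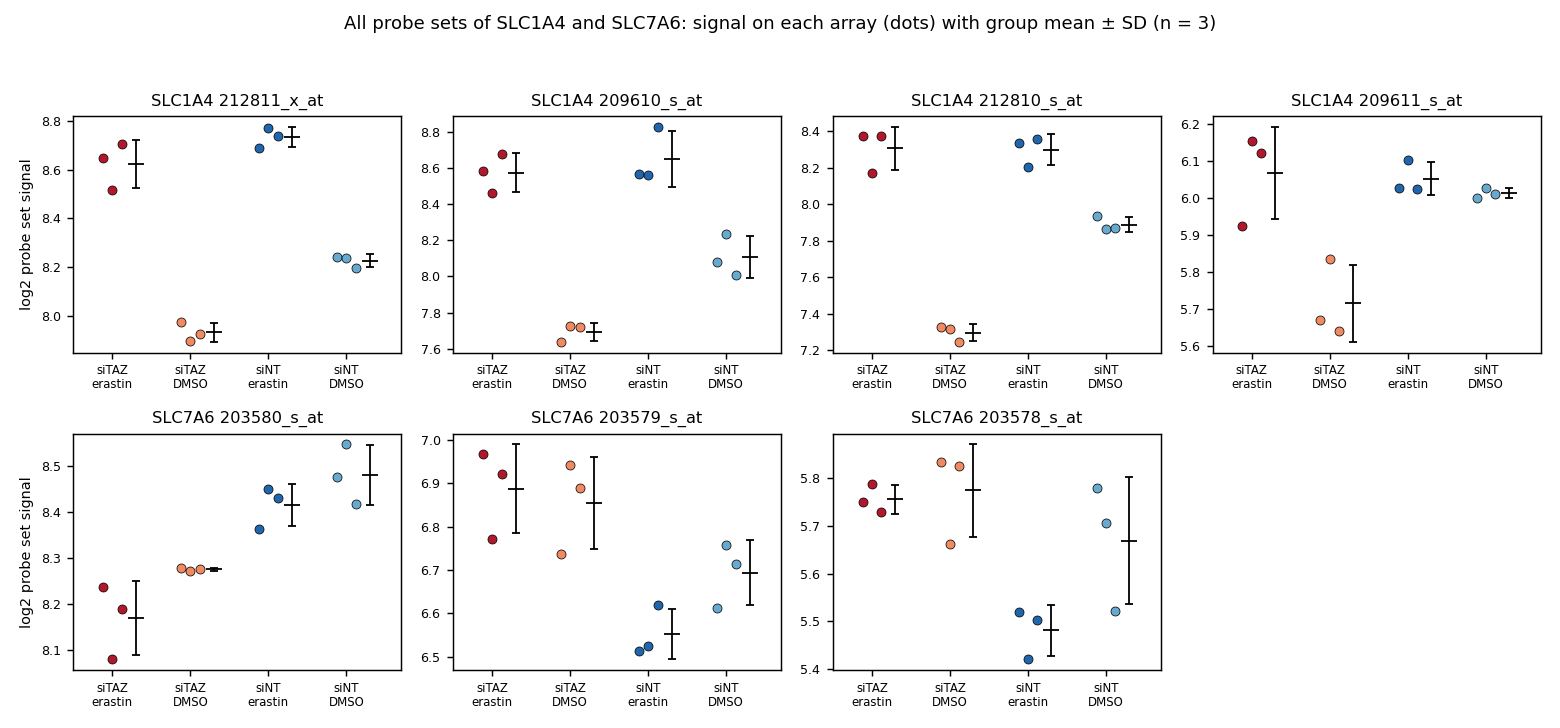
Log2 signal (vertical axes) on every array for the 4 SLC1A4 probe sets (upper row) and the 3 SLC7A6 probe sets (lower row), by group, with mean ± SD (n = 3). The SLC1A4 probe sets share the low siTAZ DMSO group, whereas the brightest of SLC7A6 (left) is lower and the other SLC7A6 probe sets are higher on siTAZ erastin than on siNT erastin arrays.

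SLC7A8 encodes LAT2, an exchanger of neutral amino acids of the basolateral membrane of kidney tubule cells. Its brightest probe set had means of 6.91 ± 0.04 in siTAZ erastin, 6.85 ± 0.09 in siTAZ DMSO, 6.90 ± 0.18 in siNT erastin and 6.91 ± 0.08 in siNT DMSO (SD, n = 3). The arrays overlapped in all 4 comparisons and none of its 5 probe sets, of which 3 were dim, passed the test. The 95% intervals were −0.24 to 0.12 for siTAZ against siNT in vehicle and −0.18 to 0.19 under erastin.

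SLC38A1 encodes SNAT1 and SLC38A2 encodes SNAT2, sodium-coupled carriers of glutamine and other small neutral amino acids. SLC38A1 had signals of 11.11, 11.20 and 11.22 on siTAZ DMSO arrays, against 11.37, 11.44 and 11.30 on siNT DMSO arrays. It fell by 0.19 ± 0.05 or 1.14-fold (adjusted p = 0.0202 in limma). The call was lost without siTAZ DMSO replicate 1 (−0.16, adjusted p = 0.0857 in limma) or siNT DMSO replicate 1 or 2 (−0.19 and −0.15, adjusted p = 0.0559 and 0.0885 in limma). Under erastin its signals of 11.36, 11.30 and 11.36 on siTAZ arrays lay below those of 11.51, 11.44 and 11.44 on siNT arrays, and the difference of −0.13 ± 0.05 did not pass the test (adjusted p = 0.111 in limma). With a trend in the variances it did (adjusted p = 0.0359 in limma). Its erastin responses of 0.16 ± 0.05 in siTAZ and 0.10 ± 0.05 in siNT cells did not pass it either.

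SLC38A2 showed the largest erastin response of the 10 genes in siNT cells. Its signals were 10.89, 10.95 and 11.12 on siNT erastin arrays, against 10.34, 10.47 and 10.12 on siNT DMSO arrays. In silenced cells they were 10.79, 10.76 and 10.87 on siTAZ erastin arrays, against 10.24, 10.20 and 10.31 on siTAZ DMSO arrays. The erastin and DMSO arrays did not overlap with either siRNA. It rose by 0.67 ± 0.09 or 1.60-fold in siNT cells (adjusted p = 0.00309 in limma) and by 0.55 ± 0.09 or 1.46-fold in siTAZ cells (adjusted p = 0.0132 in limma). The call in siTAZ cells was lost without siTAZ erastin replicate 1 or 3 (0.56 and 0.52, adjusted p = 0.0586 and 0.0752 in limma) or siTAZ DMSO replicate 1 or 2 (0.55 and 0.52, adjusted p = 0.0762 and 0.0658 in limma). A second SLC38A2 probe set gave 0.67 and 0.63 and was called in both. On silencing, SLC38A2 differed by −0.06 ± 0.09 in vehicle and −0.18 ± 0.09 under erastin, neither past the test.

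In the fit with all arrays, erastin thus raised the same 3 of the 10 genes with either siRNA. They were SLC1A4, SLC38A2 and SLC7A5, and 0 fell. Of all genes, 0.56% were called in siTAZ cells (0.46% rose and 0.1% fell) and 0.802% in siNT cells (0.527% rose and 0.276% fell). Of the 3 genes, only SLC1A4 was called in all 18 alternatives with either siRNA. These 18 leave out fits of single less bright probe sets, and the least bright of SLC1A4 was called with neither siRNA. SLC7A5 was called in 18 of 18 in siTAZ cells but in 8 of 18 in siNT cells. SLC38A2 was called in 13 of 18 in siTAZ cells and in 17 of 18 in siNT cells. Whichever array was left out, 2 of the 10 genes were called in siNT cells. The erastin arrays did not overlap the DMSO arrays for 8 of the 10 genes in siTAZ cells (20.7% of all genes), 6 above (10.9%) and 2 below (9.81%), and for 5 in siNT cells (14.4%), 5 above (5.92%) and 0 below (8.52%). The medians of the 10 genes were 0.27 in siTAZ and 0.12 in siNT cells, beside 0.01 and −0.0035 over all genes. Among all 11963 genes ordered by log2 fold change from the highest, SLC38A2 stood at place 26 in siTAZ and 13 in siNT cells, and SLC1A4 at place 17 in siTAZ and 27 in siNT cells.

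**Figure D3:**
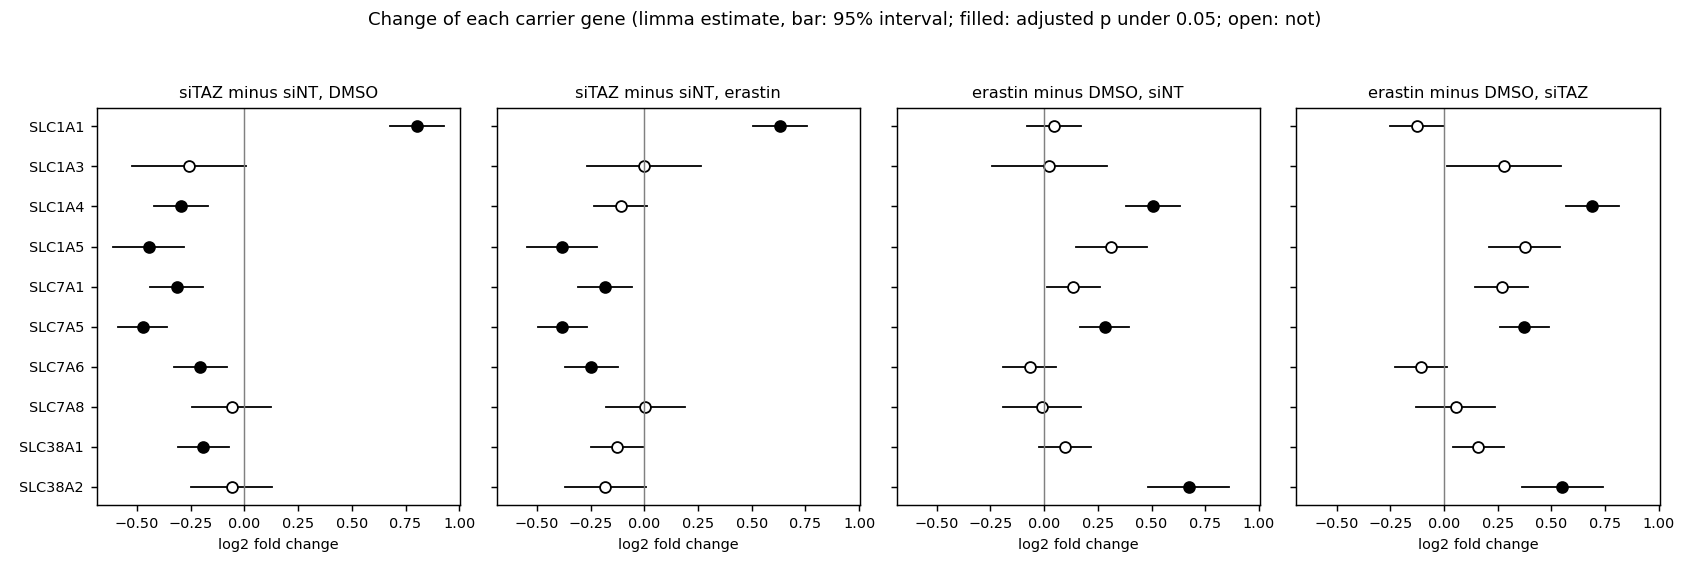
Log2 fold change of each carrier gene (horizontal axes) with its 95% interval from limma, for siTAZ minus siNT in DMSO and in erastin and for erastin minus DMSO in siNT and in siTAZ cells; filled points have an adjusted p under 0.05. SLC1A1 is the only gene called upward on silencing, and SLC1A4, SLC7A5 and SLC38A2 are those called on erastin.

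Whether silencing changed the erastin response was tested as the difference between the responses. Of the 10 genes 0 passed the test in limma, and of all genes 0% did. At an unadjusted p under 0.05 SLC1A4 alone of the 10 was below it, with 6.39% of all genes. Its response was larger in siTAZ than in siNT cells by 0.18 ± 0.08 (95% interval 0.01 to 0.36, adjusted p = 0.77 in limma). The corresponding 95% intervals were −0.07 to 0.26 for SLC7A5, −0.17 to 0.30 for SLC1A5, −0.39 to 0.14 for SLC38A2 and −0.35 to 0.01 for SLC1A1. These 4 intervals include 0 and also differences in either direction as large as their ends. SLC7A11, the transport subunit of system xc, had the same contrast at 0.61 ± 0.09 with an adjusted p of 0.0583 in limma, a larger difference than for any of the 10 genes on the probe sets that stand for them.

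**Figure D4:**
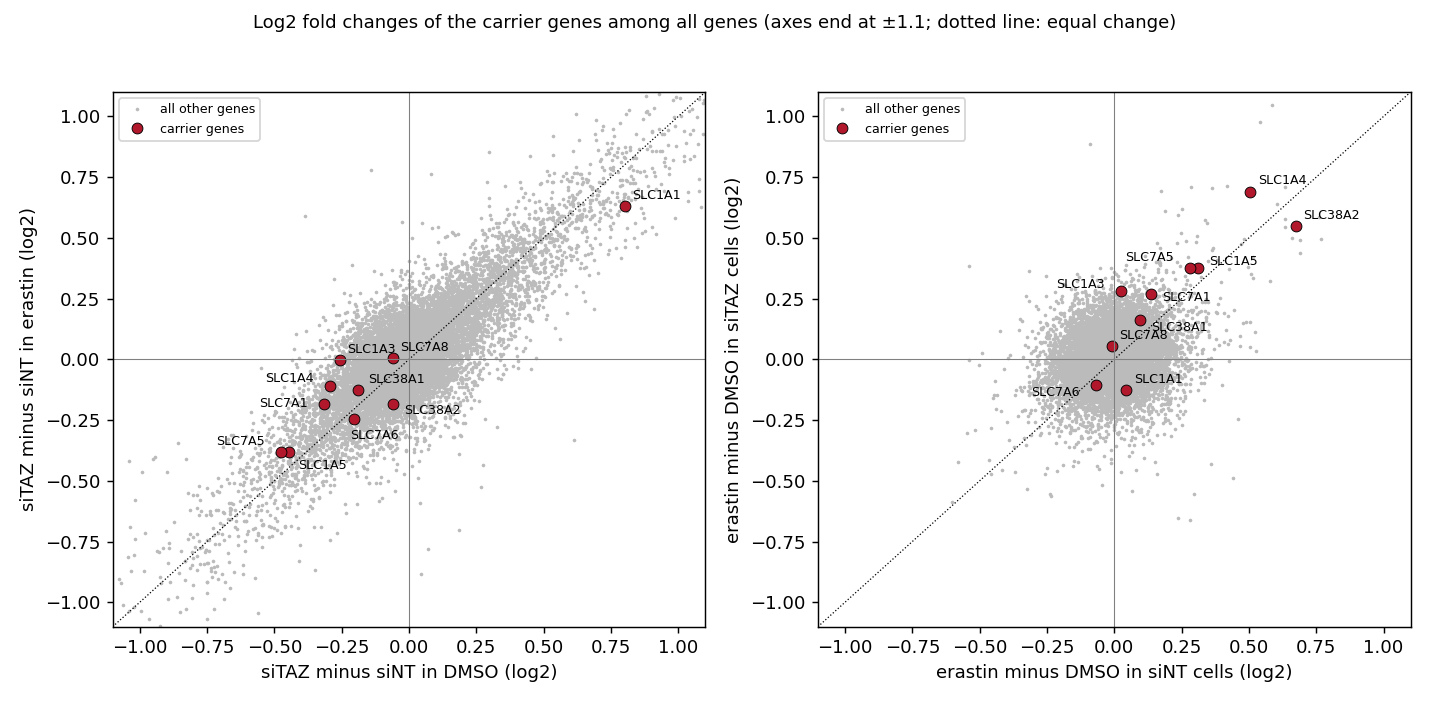
Log2 fold changes of the 10 carrier genes (red) and all other genes (grey): siTAZ minus siNT in erastin against the same in DMSO (left), and erastin minus DMSO in siTAZ against siNT cells (right). The 2 axes of a panel share no arrays; the dotted line marks equal change, and 129 genes on the left and 8 on the right lie outside the axes.

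The order of the 4 groups separated the genes into patterns. For SLC7A5, SLC1A5, SLC7A1 and SLC38A1 the means ran from siNT erastin (highest) through siNT DMSO and siTAZ erastin to siTAZ DMSO (lowest). In each of these 4 genes the siTAZ erastin arrays overlapped the siNT DMSO arrays. The difference between these groups was not tested. For SLC7A5 the overlap was narrow, with the siNT DMSO mean 0.10 above that of siTAZ erastin and a pooled SD of 0.048. For SLC38A1 the siNT erastin and siNT DMSO arrays overlapped as well. Set against siNT DMSO on the linear scale, siTAZ erastin cells had 93.3% of the SLC7A5 signal, 95.3% of that of SLC1A5, 96.9% of that of SLC7A1 and 97.9% of that of SLC38A1. For SLC1A4 and SLC38A2 both erastin groups lay above both DMSO groups, with 132% and 141% of the siNT DMSO signal in siTAZ erastin cells. The siTAZ erastin and siNT erastin arrays overlapped for SLC1A4, and the siTAZ DMSO and siNT DMSO arrays for SLC38A2. For SLC1A1 both siTAZ groups lay above both siNT groups, at 160% with erastin and 174% in vehicle. SLC7A6 on its brightest probe set had both siTAZ groups lowest, and the siNT erastin and siNT DMSO arrays overlapped. SLC7A8 had no neighbouring groups apart, and for the dim SLC1A3 no order is given.

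Over the 12 arrays SLC7A5 correlated most with SLC7A1 (Pearson's r = 0.96), SLC38A1 (0.94) and SLC1A5 (0.94), and SLC1A4 with SLC38A2 (0.93). SLC1A1 had negative values with all other 9 genes, from −0.81 with SLC7A5 to −0.20 with SLC38A2. These coefficients describe 12 arrays that fall into 4 groups and share their normalisation, so they reflect the differences between groups above. Among all other genes at or above the median signal, the nearest to each were DUSP3 for SLC1A1 (r = 0.997), ATF4 for SLC1A4 (0.986), PYCR1 for SLC1A5 (0.962), YARS1 for SLC7A1 (0.986) and for SLC38A1 (0.943), TARS1 for SLC7A5 (0.990), EFCAB14 for SLC7A6 (0.985) and HERPUD1 for SLC38A2 (0.965). The nearest for the dim SLC1A3 (CCNH, 0.838) and for SLC7A8 (SNX15, 0.782) were less close. Each of these values is the highest picked from all genes searched, over the same 12 arrays in 4 groups. No link between the genes was tested.

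Other amino acid carriers were taken from a list of 40 genes of the SLC1, SLC3, SLC6, SLC7, SLC16, SLC36, SLC38 and SLC43 families, of which 26 were measured and 12 were dim in every group. On silencing 4 of the 26 rose and 1 fell in vehicle, where 14.7% of all genes rose and 13.9% fell, and the median was −0.01. Under erastin 5 rose and 0 fell, where 15.6% of all genes rose and 12.6% fell, and the median was −0.0019. SLC3A1, the heavy chain of the cystine and dibasic amino acid exchanger of the kidney tubule, rose by 0.81 ± 0.05 in vehicle and 0.54 ± 0.05 under erastin. The taurine carrier gene SLC6A6 rose by 0.59 ± 0.14 and 0.46 ± 0.14, SLC36A1, a proton-coupled amino acid carrier of lysosomes, by 0.45 ± 0.06 and 0.45 ± 0.06, and SLC38A10 by 0.32 ± 0.08 and 0.35 ± 0.08. SLC7A11 fell by 0.28 ± 0.06 in vehicle, and it rose by 0.33 ± 0.06 under erastin. Erastin raised SLC7A11, SLC3A2 and SLC3A1 in siNT cells, the last by 0.26 ± 0.05, and SLC7A11 alone in siTAZ cells. Of 23 measured amino acid response genes, a list that holds upstream kinases, transcription factors such as ATF4 and enzymes, 16 fell and 4 rose on silencing in vehicle, and 14 fell and 3 rose under erastin, beside the same shares of all genes. Their median log2 fold changes were −0.40 and −0.35. The gene that encodes GCN2 was on this list but not among those measured. Erastin raised 14 of the 23 with either siRNA, where 0.46% of all genes rose in siTAZ cells and 0.527% in siNT cells. Of 15 measured genes of amino acid sensing by mTORC1, 4 fell and 3 rose in vehicle and 3 fell and 2 rose under erastin, with medians of −0.05 and 0.05.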

How the data were processed

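RNA of RCC4 cells was measured on 12 1-colour Affymetrix arrays. The deposited log2 signals were made by the authors in Expression Console (Affymetrix) by the RMA method, as named in the submitters' processing notes, which give no versions. The series text describes values set against the siNT mean, which these values do not show, so they were used as log2 signals. Groups came from sample titles. Of 22277 probe sets, the fits leave out 62 controls, 1043 assigned to more than 1 gene and 2108 that the annotation does not name. The remaining 19064 cover 11963 genes, named from the platform annotation, and the brightest probe set stands for its gene. Windows around starts came from RefSeq (GRCh38.p14).

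One fit with 4 group means was made in limma 3.58.1 (R 4.3.3; 8 residual and 3.90 prior degrees of freedom), with 5 contrasts and Benjamini-Hochberg adjustment over all genes, called under 0.05, and a further fit over all 19064 probe sets. The fit was tested on simulated data. With 3 arrays against 3, an exact permutation test cannot give a p under 0.1, so none was made. The number of arrays limits the precision. The text could name the 10 genes, WWTR1, SLC3A2 and the gene nearest to each member. From the carrier list it could name up to 4 called genes per comparison. SLC7A11 qualified by its erastin responses and is also given for silencing and the interaction. ATF4 is the gene nearest to SLC1A4. The remaining lists were counted. Members and lists were chosen with earlier results of these data known. Replicate numbers showed no pairing of the arrays over all groups. Deviations from group means correlated at −0.42 to 0.36 in 18 same-number pairs, of which 4 were over 0.1. In 36 different-number pairs they correlated at −0.42 to 0.34, with 13 over 0.1. Between siTAZ erastin and siNT erastin arrays the same-number values were −0.05, 0.36 and 0.30, and the different-number values ran from −0.42 to 0.15. Pairing was not tested there. Alternatives covered scaling, dim genes, probe sets, variance settings, array weights, a replicate block, an actin covariate and single arrays left out. Counts out of 18 leave out fits of single less bright probe sets.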

Additional observations from a re-analysis of the deposited data

How the results depend on the processing

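Centring each array on its median changed no call of the 10 genes in any of the 5 comparisons, nor did robust variances. A second quantile normalisation lost 1 call, that of SLC7A1 on silencing under erastin (−0.18, adjusted p = 0.059 in limma), which left 4 there. Leaving out 1 array at a time, the number of the 10 genes called was 5 to 7 for siTAZ against siNT in vehicle (7 with all arrays), 4 to 5 under erastin (5 with all), 2 for erastin in siNT cells with every array left out (3 with all), 2 to 3 in siTAZ cells (3 with all) and 0 for the interaction. With the replicate number as a block these counts were 7, 4, 2, 2 and 0; the calls lost there were SLC7A1 under erastin (−0.18, adjusted p = 0.0588), SLC7A5 for erastin in siNT cells (adjusted p = 0.0789) and SLC38A2 for erastin in siTAZ cells (adjusted p = 0.0557). For siTAZ against siNT under erastin, 3 genes were called with the mean of all probe sets or with the actin covariate. For erastin in siTAZ cells, 5 were called with genes under the 25th or the 50th percentile left out, with a trend in the variances or with array weights, SLC1A5 and SLC7A1 being added. For erastin in siNT cells, 1 was called with only the compared groups in the fit. Asking also for an absolute log2 change of 1 or more, 0 were called in each comparison. SLC7A6 reversed on silencing with the mean of its probe sets (0.021 in vehicle, 0.12 under erastin) and on its 2 less bright probe sets (0.16 and 0.11 in vehicle, 0.34 and 0.28 under erastin); the cause was not tested. Without any 1 of the 6 siTAZ arrays, 30 to 41 of all genes were called for erastin in siTAZ cells, and without siNT DMSO replicate 1, 2 or 3 or siNT erastin replicate 1 or 2, 30 to 53 in siNT cells. Over the alternatives on genes, the count of all genes called for erastin ranged from 4 to 324 in siNT cells (96 in the text's fit) and from 9 to 166 in siTAZ cells (67), against 157 to 4325 (3419) for silencing in vehicle, 145 to 4022 (3369) under erastin and 0 to 11 (0) for the interaction. The low ends of 4, 9, 157 and 145 came from the added cut on the log2 change in the text's fit, not from a refit. Among refits the lowest counts for erastin were 15 in siNT cells, with only the compared groups, and 30 in siTAZ cells. With the replicate block, silencing gave 3187 in vehicle and 3104 under erastin.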
